A study of Mus musculus with 14 samples.

Results

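The major urinary protein (Mup) genes examined here are Mup1, Mup2, Mup3, Mup7, Mup10, Mup11, Mup12, Mup17, Mup20 and Mup21, taken by symbol from a table of 54532 mouse genes. They were followed in liver RNA of 5 groups of C57BL/6J mice, all 52 weeks old, in 14 libraries. The groups were males with the genotype Abcb11-/- (n = 3), wild-type males (n = 3), tumour tissue from livers of Abcb11-/- females (n = 3), non-tumour tissue from livers of Abcb11-/- females (n = 3) and wild-type females (n = 2, numbered 2 and 3). Abcb11 encodes the bile salt export pump of hepatocytes. The knockout groups are called knockout males, female tumours and non-tumour tissue of knockout females below. The series' design text speaks of 3 mice per group. The labels do not say whether the tumour and non-tumour samples with the same number came from the same mouse, nor whether the knockout males carried tumours.

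Major urinary proteins are small lipocalins that the liver secretes into blood and that pass into the urine, where they bind and slowly release volatile pheromones. Liver expression is much higher in male than in female mice and depends on the pulsed male pattern of growth hormone and on androgens. The genes sit in a cluster of near-identical copies that also holds many pseudogenes. Mup20 encodes darcin, a pheromone protein of male mice that attracts females.

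All 10 genes lie on the minus strand of chromosome 4 in GRCm38, the build of the deposited coordinates, and together span 60066469 to 62150863, or 2084.4 kb. All 10 are protein coding. In the order of the cluster they are Mup7 (60066469 to 60070475), Mup2 (60135932 to 60154289), Mup1 (60498012 to 60501960), Mup10 (60578260 to 60582199), Mup11 (60658466 to 60662411), Mup12 (60737383 to 60741326), Mup17 (61591929 to 61595871), Mup20 (62050234 to 62054158), Mup3 (62083476 to 62087342) and Mup21 (62147932 to 62150863). The first 7 are called the array members below. Their coding sequences in the GENCODE vM21 annotation were 98.7% to 99.8% identical over 21 pairs. Mup20 shared 90.4% to 91.3% of its coding bases with the array members, and Mup3 and Mup21 shared 83.9% to 85%. Mup3 and Mup21, which lie next to Mup20, were 96.3% identical to each other.

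The 60 coding bases below are the stretch in which Mup20 differs most from the bases that most of the other members have. They show why reads of Mup20, Mup3 and Mup21 can be told from those of the array members, while the array members can hardly be told apart. Capitals mark bases that differ from the one most of the 10 members have.
Mup1: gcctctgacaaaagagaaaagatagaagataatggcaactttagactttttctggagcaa
Mup7: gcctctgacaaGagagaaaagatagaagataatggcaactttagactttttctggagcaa
Mup17: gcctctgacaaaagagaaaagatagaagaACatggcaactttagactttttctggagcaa
Mup20: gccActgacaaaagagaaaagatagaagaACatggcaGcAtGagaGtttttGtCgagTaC
Mup3: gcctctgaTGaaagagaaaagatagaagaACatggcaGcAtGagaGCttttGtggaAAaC
Mup2, Mup10, Mup11 and Mup12 carry the same 60 bases as Mup1, and Mup21 the same as Mup3. Against the majority, Mup20 has 11 differing bases, Mup3 and Mup21 have 13 each, Mup17 has 2 and Mup7 has 1. Most of those of Mup20 are shared with Mup3 and Mup21.

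Over whole transcripts, 125-base windows (the shorter of the stated read lengths of 125 and 150 bases) that occur in no other annotated gene made up 5.85% of the windows of Mup2, 12.1% of Mup1, 15.1% of Mup10, 18.2% of Mup7, 20.1% of Mup11, 23.2% of Mup12 and 49.8% of Mup17. The share was 66.2% for Mup20, 99.9% for Mup3 and 99.8% for Mup21. The array members shared windows with 14 to 16 other genes. Mup20 shared windows with 1 other gene, the pseudogene Mup-ps19, and Mup3 and Mup21 shared them only with each other. The split of reads among the array members is therefore uncertain, and their values are read beside the family sum, the counts of the 10 members added within a library.

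**Figure D1:**
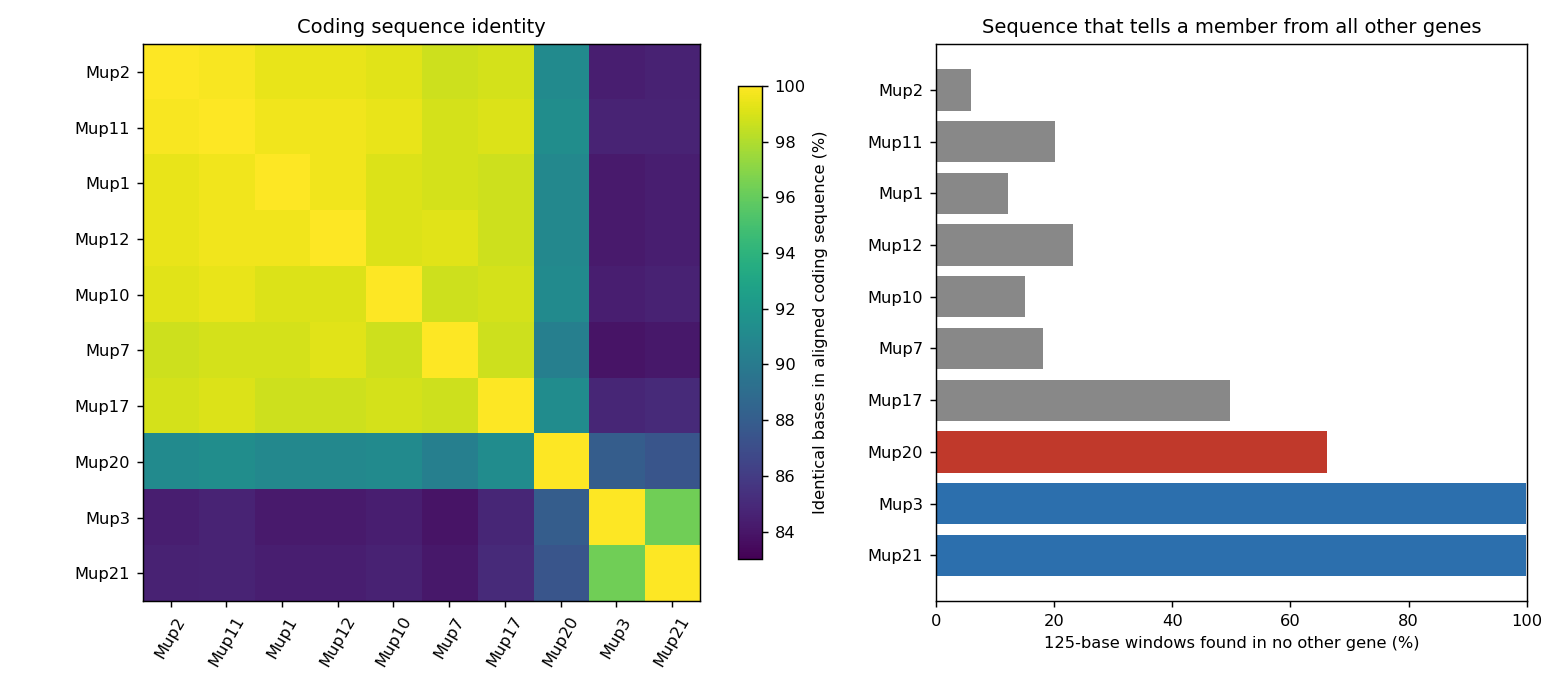
Left, the percentage of identical bases in aligned coding sequence for each pair of the 10 Mup members (colour scale from 83% to 100%); right, the percentage of each member's 125-base transcript windows found in no other gene (bars from 0). The 7 array members form a block at 98.7% or more, and their bars end at 49.8% or below, while Mup20 reaches 66.2% and Mup3 and Mup21 reach 99.8% or more.

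Library totals were 14745140 to 19480538 counts. Abcb11 was lower in every knockout library, with 17.9 to 104 CPM (counts scaled to library size by the trimmed mean of M values, TMM), than in wild-type libraries, with 270 to 489 CPM. Markers of hepatocytes (8 genes, none at 0 in any library) summed to 55335 to 68625 CPM in knockout males, 26499 to 56710 in wild-type males, 46251 to 81243 in female tumours, 46555 to 85355 in non-tumour tissue and 44711 to 46811 in wild-type females. Cholangiocyte markers (6 genes) summed to 64.0 to 350.0 CPM in knockout males, 57.3 to 83.7 in wild-type males, 660 to 1349 in female tumours, 418 to 559 in non-tumour tissue and 133 to 277 in wild-type females. At most 1 of these 6 markers was at 0 in a male library and none in a female one. Knockout male 2 alone held the 350.0 CPM, and the other knockout males had 64.0 and 70.8 CPM. Wild-type male 3 stood apart from the other wild-type males, with 15094 CPM of albumin (Alb) and 42.2% mitochondrial counts, against 35829 and 25786 CPM and 28.6% and 33.9%. Its lymphocyte markers (4 genes) summed to 213 CPM, against 12.9 and 5.15 CPM in the other wild-type males. These samples are whole tissue, in which fewer cells of a type and less RNA per cell cannot be told apart. Nothing states that replicates are more than separate samples of a group, so p-values measure the spread between these samples.

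The family sum was highest in males. It came to 4498, 1936 and 6979 CPM in knockout males and to 8050, 8753 and 1916 CPM in wild-type males. The 2 sets overlap, and the lowest wild-type value was that of wild-type male 3. Female tumours had 8.22, 58.1 and 737 CPM, non-tumour tissue of knockout females had 15.4, 36.4 and 9.04 CPM, and wild-type females had 587 and 394 CPM. Every non-tumour library lay far below both wild-type females. Tumour 3 lay above both wild-type females and the other two tumours far below them. As a share of all counts the family took 0.401% ± 0.239 in knockout males, 0.598% ± 0.349 in wild-type males, 0.0273% ± 0.0411 in female tumours, 0.00208% ± 0.00132 in non-tumour tissue (SD, n = 3 each) and 0.0530% ± 0.0120 in wild-type females (SD, n = 2). The sum got no test, since the members were chosen with earlier results known.

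Per length, the order of the members differed between groups (deposited FPKM, mean ± SD, n = 3 or, for wild-type females, 2). In knockout males Mup20 came first with 3649 ± 1937 FPKM, ahead of Mup3 with 440 ± 274, Mup12 with 122 ± 101 and Mup21 with 70.0 ± 22.8. In wild-type males Mup12 had 1830 ± 1383 FPKM and Mup3 had 1773 ± 946, followed by Mup20 with 818 ± 439, Mup17 with 718 ± 544, Mup7 with 654 ± 540 and Mup11 with 324 ± 165. Mup12 and Mup3 lie within 1 SD of each other, and so do neighbours from Mup20 to Mup11, whereas Mup20 lies more than the SD of Mup3 below it. In female tumours Mup20 had 222 ± 354 FPKM and Mup3 41.5 ± 51.1, and the spread exceeded the mean for both. In non-tumour tissue Mup20 with 8.38 ± 5.41, Mup21 with 5.13 ± 0.393 and Mup3 with 4.38 ± 3.75 FPKM lay within 1 SD of one another. In wild-type females Mup3 had 414 ± 108 FPKM and no other member passed 9.28, the mean of Mup17. Mup10 and Mup2 were among the lowest members in males, at 0.511 to 1.61 FPKM on average.

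**Figure D2:**
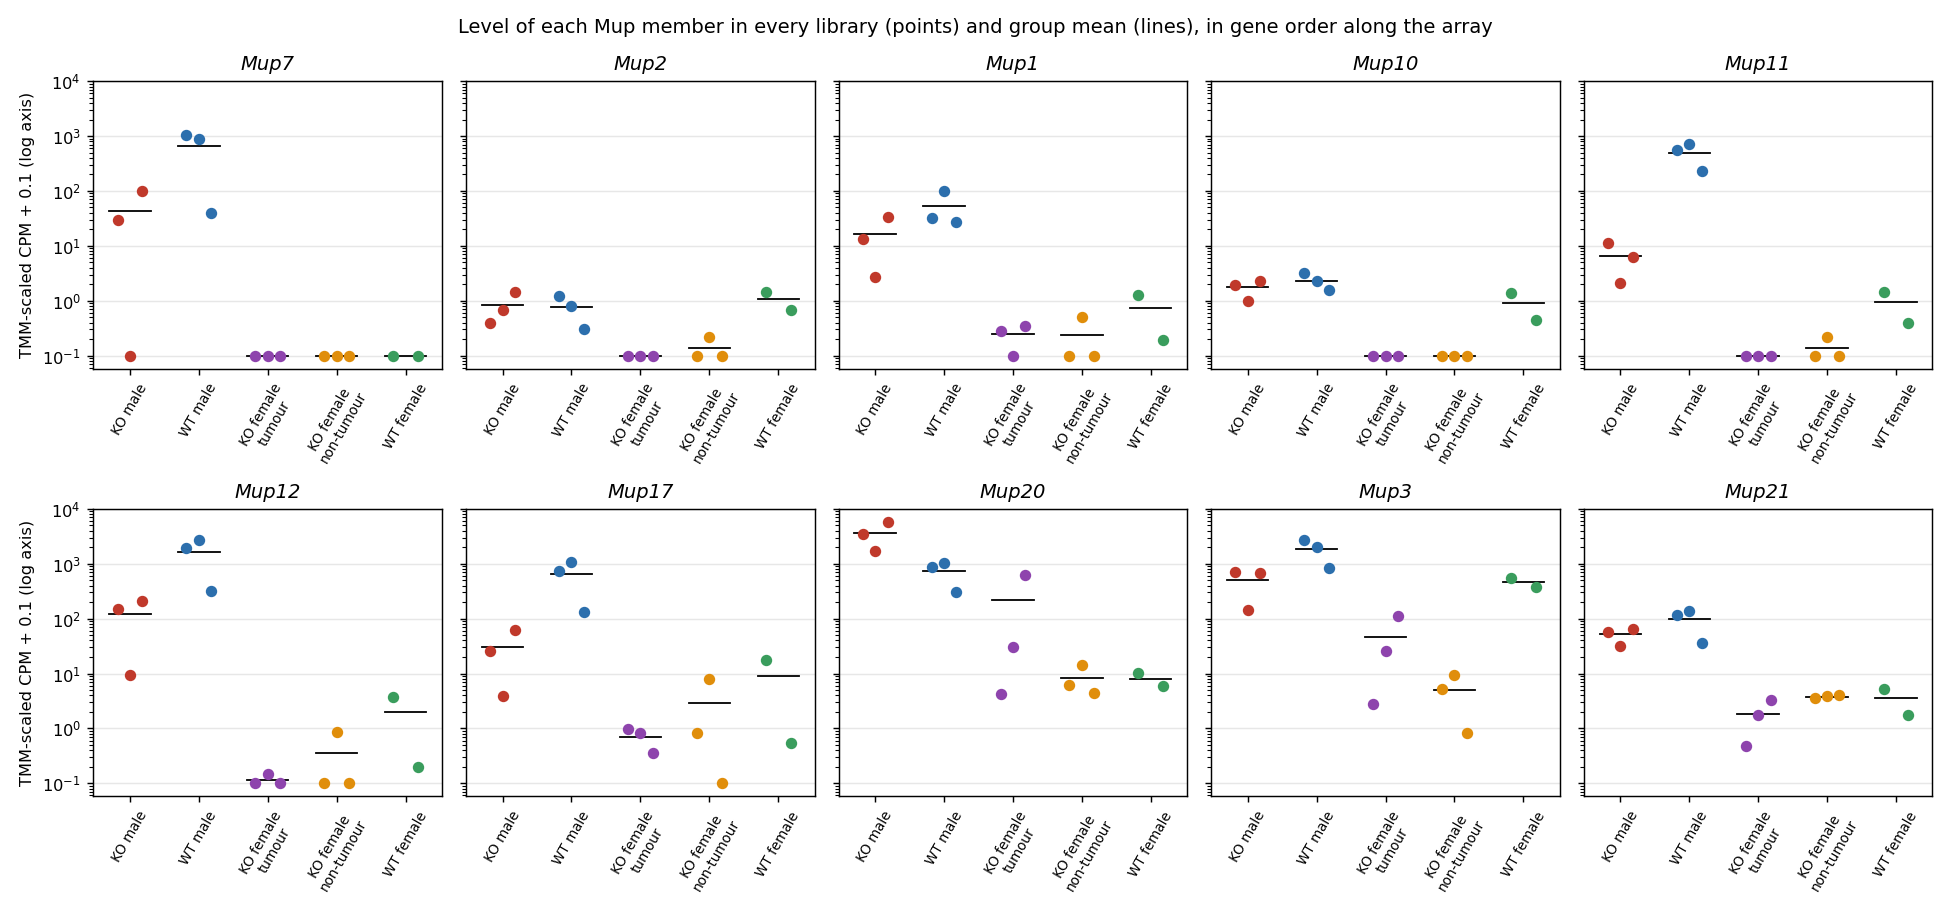
TMM-scaled CPM plus 0.1 of each Mup member (log axis) in the 14 libraries, with points for libraries and lines for group means; panels run in the order of the cluster. The array members have the lowest points in both knockout female tissues, with 7.71 CPM of Mup17 in non-tumour 2 the highest of them, Mup20 is highest in knockout males at 1744 to 5815 CPM, and Mup3 is the one member above 100 CPM in wild-type females.

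The first comparison, knockout males against wild-type males, asks what loss of the bile salt exporter goes with in males. Mup11 fell, and the direction differed among the members. Mup11 had 11.2, 1.97 and 6.28 CPM in knockout males, against 554, 719 and 232 CPM in wild-type males. Every knockout value lay far below every wild-type value. The log2 fold change was −6.27 ± 0.79 (SE, adjusted p = 0.00058). Of the other array members, Mup12 had 148, 9.43 and 211 CPM in knockout males, against 1910, 2756 and 315 CPM in wild-type males, and Mup17 had 25.3, 3.73 and 61.5 CPM, against 727, 1098 and 131 CPM. The groups do not overlap for either gene, but neither passed the threshold of 0.05. The adjusted p was 0.0719 for Mup12 (−3.76 ± 1.34) and 0.0909 for Mup17 (−4.43 ± 1.68). Mup7 had 28.9, 0 and 98.2 CPM in knockout males, against 1063, 882 and 40.1 CPM in wild-type males, and the groups overlap (−3.96 ± 2.20, adjusted p = 0.278). Mup1 overlapped too, at 13.3, 2.63 and 33.4 CPM in knockout males, against 32.3, 100.2 and 26.99 CPM in wild-type males (−1.69 ± 0.94, adjusted p = 0.234).

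Mup20 was the one member with groups that did not overlap and higher values in knockout males, while 8 of the 10 members had negative log2 differences. Mup20 had 3509, 1744 and 5815 CPM in knockout males, against 880.3, 1052 and 307 CPM in wild-type males. The lowest knockout value is above the highest wild-type value. The log2 difference of 2.31 ± 1.29 was within what the fit across all groups allows (adjusted p = 0.235), while a fit of the 2 male groups alone called it at an adjusted p of 0.0338. The pseudogene that shares windows with it, Mup-ps19, had 246, 78.9 and 559 CPM in knockout males, against 37.2, 51.7 and 11 CPM in wild-type males, so reads of the 2 cannot be fully parted. Mup3, 33.2 kb from Mup20, had 702, 141 and 686 CPM in knockout males, against 2764, 2006 and 827 CPM in wild-type males. The groups do not overlap and lie in the opposite order to Mup20 (−1.87 ± 1.12, adjusted p = 0.264). Mup21, 96.7 kb from Mup20, had 58.2, 31.7 and 64.3 CPM in knockout males, against 116, 138 and 35.7 CPM in wild-type males, and the groups overlapped (−0.91 ± 0.58, adjusted p = 0.297).

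In all, 0 of 10 members rose and 1 fell in knockout males, where 20.6% of all 17874 genes tested were called (14.3% higher and 6.32% lower), so 1 of 10 is no more than the background. Groups did not overlap for 5 of 10 members (Mup3, Mup11, Mup12 and Mup17 lower, Mup20 higher), against 35.3% of all genes. The median log2 difference was −1.78 over the members and 0.11 over all genes. Another scaling (relative log expression) moved the median of all genes to 0, and in the comparison of wild-type sexes from −0.12 to −0.01. It turned the direction of none of the 37 gene and comparison pairs of members checked. Without Mup20 the summed counts were 782 ± 518 CPM in knockout males and 5493 ± 3374 CPM in wild-type males (SD, n = 3 each), a log2 ratio of −2.81, while with it the ratio was −0.48. That split was chosen after the values were seen. Knockout male 2, which held the most cholangiocyte marker RNA of the males, was the lowest of the 6 males for every array member except Mup2. Adipocyte markers (3 genes, up to 2 of them at 0) summed to 35.7 to 58.9 CPM in knockout males, against 66.0 to 150 CPM in wild-type males. Of the 3 markers, 2 were at 0 in every wild-type male and in knockout males 2 and 3. This sum therefore cannot stand for adipocytes as a cell type. Endothelial markers summed to 53.9 to 77.7 CPM, against 82.3 to 142 CPM. Both sums were lower in every knockout male than in any wild-type male. The part of these cells in the values was not tested. Without wild-type male 3, Mup12 was called as well (−4.38, adjusted p = 0.0451).

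**Figure D3:**
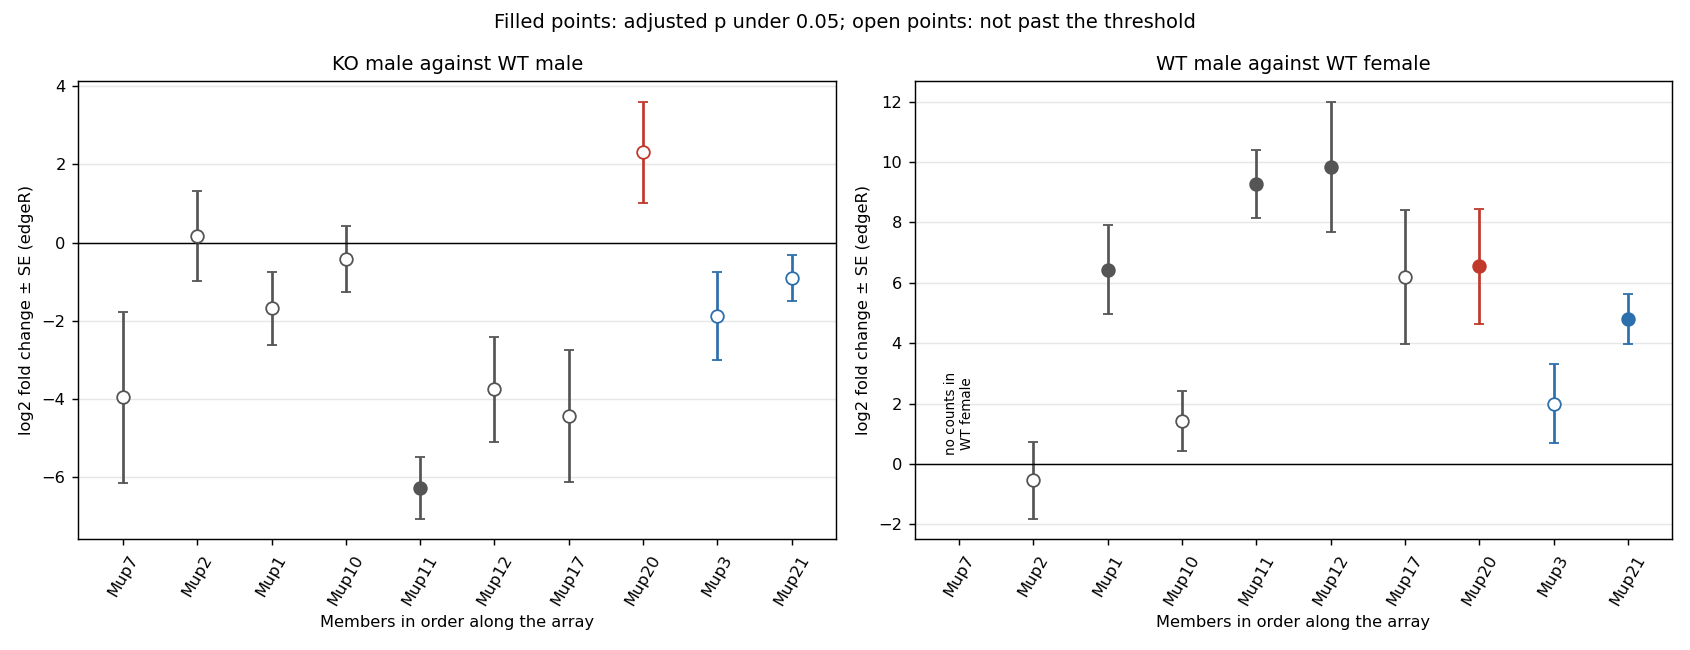
Log2 fold change ± SE of each Mup member from edgeR for knockout against wild-type males (left) and wild-type males against wild-type females (right), in the order of the cluster; filled points passed the adjusted p of 0.05 and Mup7, without counts in wild-type females, has no point on the right. On the left Mup20 stands at 2.31 and Mup11 at −6.27, the only filled point; on the right 5 members are filled.

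The make-up of the family, per length, separated the genotypes within each sex. Mup20 took 79.5%, 90.5% and 84.4% of the members' summed FPKM in knockout males, against 11.9%, 12.95% and 17.9% in wild-type males. In females it took 52.2%, 54.4% and 85.8% in the tumours and 38.7%, 39.3% and 42.1% in non-tumour tissue, against 1.93% and 1.72% in wild-type females. The genotypes do not overlap in either sex. In CPM, Mup20 itself overlapped between non-tumour tissue and wild-type females, so its larger share there goes with lower values of Mup3. Mup3 took 13.8%, 6.37% and 8.65% in knockout males, against 32.5%, 21.5% and 42.0% in wild-type males. In females Mup3 took 29.1%, 40.1% and 13.5% in the tumours and 27.4%, 22.0% and 6.04% in non-tumour tissue, against 91.9% and 97.2% in wild-type females. Mup12 took 0.490% to 3.35% in knockout males, against 18.5% to 34.0% in wild-type males. The shares rest on few counts in some libraries, 133 in tumour 1 and 200 to 614 in non-tumour tissue, where Mup21 took 14.3% to 51.8%.

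**Figure D4:**
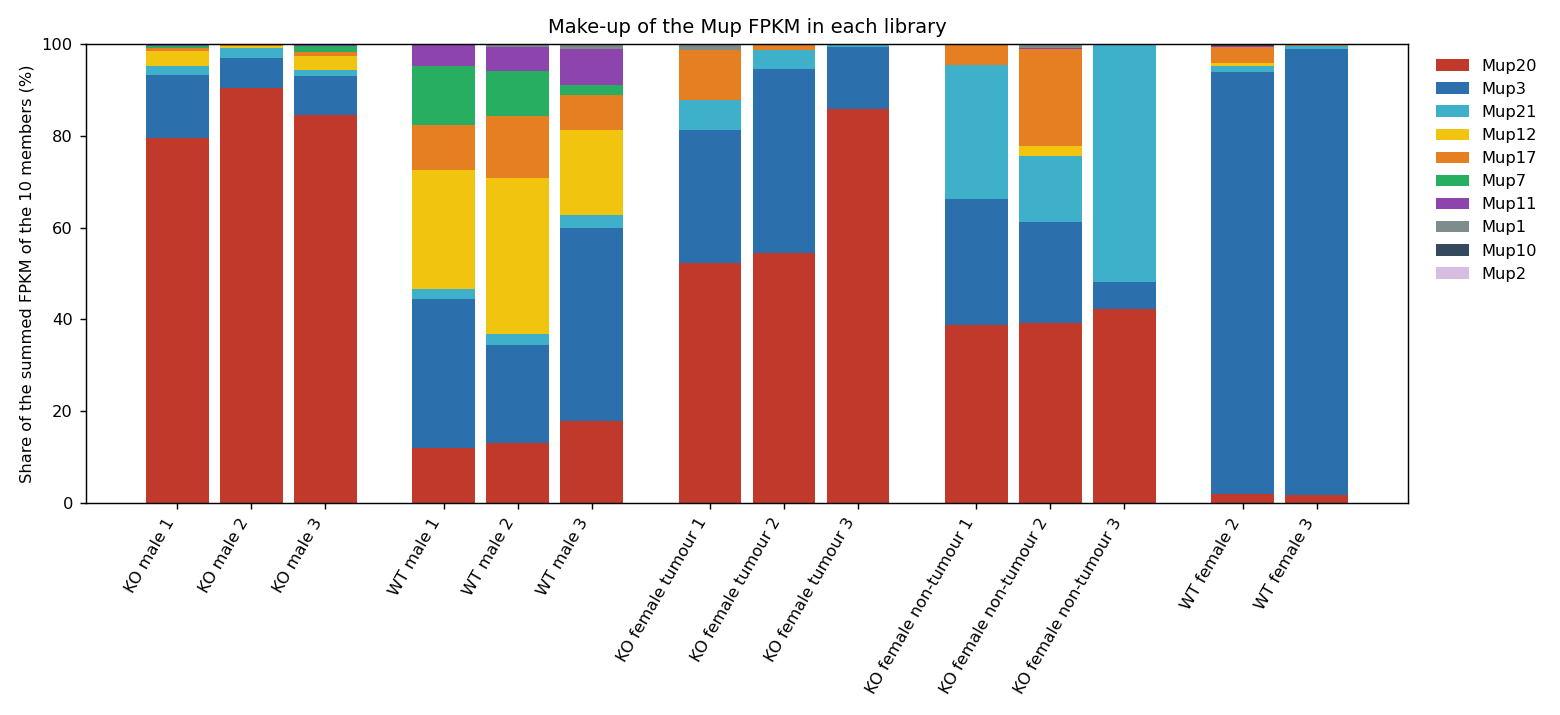
Share of the summed FPKM of the 10 Mup members taken by each member (stacked bars, % of the sum) in each of the 14 libraries. Mup20 takes 79.5% to 90.5% in knockout males, against 11.9% to 17.9% in wild-type males, and Mup3 takes 91.9% and 97.2% in wild-type females.

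The ratio of Mup20 to Mup3 FPKM within a library does not depend on the scaling between libraries. It was 5.76, 14.2 and 9.76 in knockout males, against 0.366, 0.604 and 0.427 in wild-type males. It was 1.79, 1.36 and 6.34 in female tumours and 1.41, 1.79 and 6.98 in non-tumour tissue, against 0.0210 and 0.0177 in wild-type females. All 9 knockout libraries were above 1 and all 5 wild-type libraries below it, though tumour and non-tumour libraries may come from the same mice. Mup20 itself overlapped between non-tumour tissue and wild-type females (adjusted p = 0.990), so the ratio there differs through the lower Mup3. In males Mup20 was higher and Mup3 lower without overlap, neither called. The ratio rests on 67 and 43 counts of Mup20 and Mup3 in tumour 1, and on 97 and 16 in non-tumour 3. This ratio was chosen after the values were seen and got no test.

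**Figure D5:**
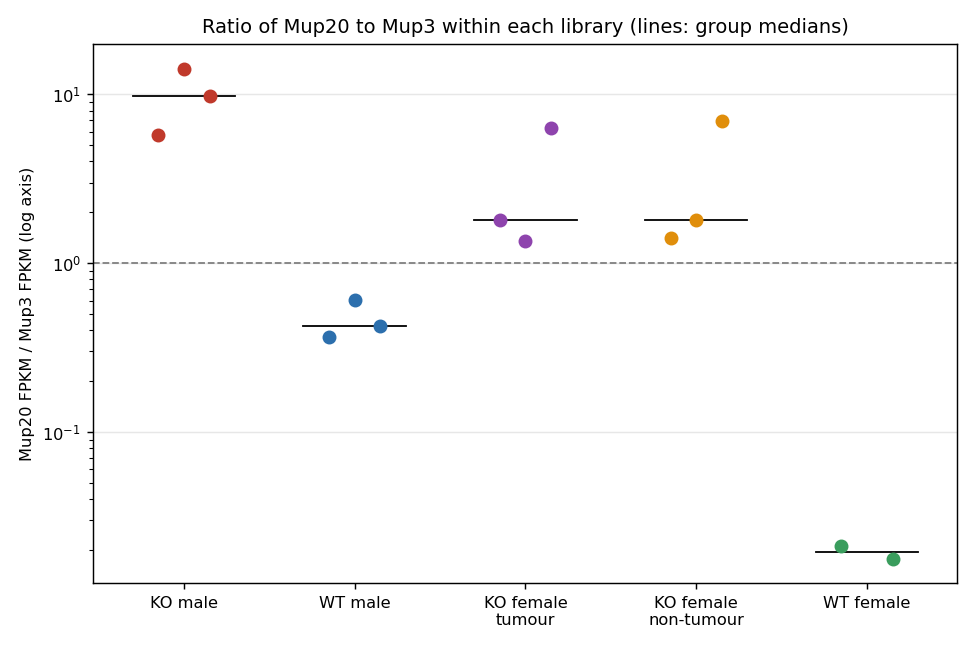
Ratio of Mup20 FPKM to Mup3 FPKM (log axis) in each library (points) with group medians (solid lines) and a dashed line at a ratio of 1. The 9 knockout libraries lie between 1.36 and 14.2 and the 5 wild-type libraries between 0.0177 and 0.604.

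Wild-type males against wild-type females gives the sex difference of wild-type liver. Of the 10 members 5 rose in males and none fell, where 23.1% of all genes were called and 7.03% were called higher. Mup11 had 554, 719 and 232 CPM in wild-type males, against 1.37 and 0.289 CPM in wild-type females (9.28 ± 1.12, adjusted p = 0.000395). Mup12 had 1910, 2756 and 315 CPM in males, against 3.62 and 0.0964 CPM in females (9.84 ± 2.16, adjusted p = 0.00894). Mup1 had 32.3, 100.2 and 26.99 CPM in males, against 1.18 and 0.0964 CPM in females (6.44 ± 1.48, adjusted p = 0.0107). Males were above females in every library for these 3 array members. The 2 other calls were Mup20 and Mup21. Mup20 had 880.3, 1052 and 307 CPM in males, against 9.98 and 5.93 CPM in females (6.55 ± 1.90, adjusted p = 0.0297). Mup21 had 116, 138 and 35.7 CPM in males, against 5.24 and 1.69 CPM in females (4.81 ± 0.83, adjusted p = 0.00195). Without wild-type female 3 the calls were 2, Mup11 and Mup21. Without wild-type female 2 the calls were 4 and Mup20 was not among them.

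The remaining members ranged widely in this comparison. Mup17 had 727, 1098 and 131 CPM in wild-type males, against 17.5 and 0.434 CPM in wild-type females, which lie far apart (6.19 ± 2.21, adjusted p = 0.0696). Mup7 had 1063, 882 and 40.1 CPM in males and no count in either female, so it was at least 214-fold higher against a floor of 3 counts per library (adjusted p = 0.0884). Mup3 had 2764, 2006 and 827 CPM in males, against 546 and 385 CPM in females, and the groups do not overlap (2.003 ± 1.31, adjusted p = 0.301). Mup10 had 3.04, 2.15 and 1.46 CPM in males, against 1.31 and 0.337 CPM in females (1.43 ± 0.99, adjusted p = 0.328). Mup2, at 0.202 to 1.10 CPM in males against 1.37 and 0.578 CPM in females, was the one member whose groups overlap. Males were higher without overlap for 9 of 10 members, against 17.5% of all genes. The median log2 difference of the members was 6.31, and that of all genes −0.12.

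Non-tumour tissue of knockout females against wild-type females asks what the knockout goes with in female liver outside tumours. Mup3, the main Mup transcript of wild-type females, fell. It had 5.04, 9.20 and 0.723 CPM in non-tumour tissue, against 546 and 385 CPM in wild-type females, with a log2 fold change of −6.55 ± 1.42 (adjusted p = 0.0306). Every non-tumour library was below 10 CPM. The call was lost without non-tumour 1 or 3 or either wild-type female (adjusted p = 0.0859 to 0.274), while the log2 value stayed between −7.34 and −5.99. Mup10, at 0 counts in the 3 non-tumour libraries and 21 and 7 counts in wild-type females, was at least 1.89-fold lower against a floor of 3 counts per library (adjusted p = 0.0267), and this call was lost when any of the same libraries was left out. Mup20 had 6.19, 14.3 and 4.39 CPM in non-tumour tissue, against 9.98 and 5.93 CPM in wild-type females, and the groups overlap (0.06 ± 1.42, adjusted p = 0.990, a sign that turned under other settings). Mup21 overlapped as well, at 3.41, 3.80 and 3.93 CPM in non-tumour tissue, against 5.24 and 1.69 CPM in wild-type females.

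Among the array members in this comparison, Mup2 had 2 counts over the non-tumour libraries and 34 over the wild-type females, 26.8-fold more in the wild type after scaling (95% counting interval 6.87 to 230). Mup11 had 2 counts in non-tumour tissue and 28 in wild-type females, 22.1-fold more in the wild type after scaling (5.57 to 191). Neither passed the test (adjusted p = 0.103 and 0.116), and these intervals cover counting error only. Both non-tumour counts of each gene came from non-tumour 2, which also held 130 counts of Mup17 (14 and 0 in the other non-tumour libraries), all 13 of Mup12 and all 7 of Mup1. Mup7 had no count in either group. In all, 2 of 10 members fell and none rose, where 4.16% of all genes were called and 2.26% were called lower. Groups did not overlap for 4 of 10 members, against 49.7% of all genes (23.2% higher, 26.5% lower). Cholangiocyte markers summed to 418 to 559 CPM in non-tumour tissue, against 133 to 277 CPM in wild-type females. Macrophage markers (5 genes, none at 0) summed to 97.0 to 306 CPM, against 75.5 to 86.4 CPM. The part of these cells in the values was not tested.

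Female tumours were set against both tissues, and these comparisons share libraries with the one above. Against non-tumour tissue no member passed (0 of 10 at the adjusted threshold, where 0% of all genes were called, and 2 of 10 at an unadjusted p under 0.05). Mup20 had 4.14, 30.1 and 621 CPM in tumours, against 6.19, 14.3 and 4.39 CPM in non-tumour tissue (4.72 ± 1.45, adjusted p = 0.665). The difference rests on tumour 3, without which it was 1.05. Mup3 had 2.66, 25.6 and 113 CPM in tumours, against 5.04, 9.20 and 0.723 CPM in non-tumour tissue (3.24 ± 1.20, adjusted p = 0.665, and 1.51 without tumour 3). Tumour 1 lies inside the non-tumour range for Mup3 and just below that range for Mup20. Mup21, with 0.371, 1.67 and 3.24 CPM in tumours, against 3.41, 3.80 and 3.93 CPM in non-tumour tissue, was the one member whose groups did not overlap (−1.05 ± 0.66, adjusted p = 0.849), where 7.64% of all genes were lower without overlap. The array members stayed below 1 CPM in every tumour library. The summed cholangiocyte markers were higher in the tumours than in non-tumour tissue (660 to 1349 against 418 to 559 CPM). So were those of adipocytes (17.3 to 189 against 4.52 to 17.0 CPM, 3 genes, up to 2 of them at 0). Of these 3 markers, 2 were at 0 in tumours 1 and 3 and in non-tumour 1 and 2. Their sum therefore cannot stand for a cell type. Endothelial sums were higher too (94.9 to 119 against 69.2 to 81.6 CPM, 4 genes, none at 0). The part of these cells in the values was not tested.

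Against wild-type females, 2 members fell in tumours and none rose, where 9.61% of all genes were called, 3.94% higher and 5.67% lower. Mup2 had 0 counts in the 3 tumours and 22 and 12 counts in wild-type females, at least 3.12-fold lower (adjusted p = 0.0268). Mup10 had 0 counts in the tumours and 21 and 7 counts in wild-type females, at least 1.82-fold lower (adjusted p = 0.0146). Mup11, also at 0 in the tumours, was at least 1.56-fold lower and missed the threshold narrowly (adjusted p = 0.05003). The call of Mup2 was lost when any library of these groups was left out, and that of Mup10 without either wild-type female. Mup3 had 2.66, 25.6 and 113 CPM in tumours, against 546 and 385 CPM in wild-type females, with no overlap (−3.31 ± 1.25, adjusted p = 0.116). Without tumour 3 the value was −5.04 and passed (adjusted p = 0.0471). Mup20 had 4.14, 30.1 and 621 CPM in tumours, against 9.98 and 5.93 CPM in wild-type females (4.78 ± 1.74, adjusted p = 0.106, and 1.11 without tumour 3). Groups did not overlap for 5 of 10 members, against 52.4% of all genes (24.8% higher, 27.6% lower). Summed cholangiocyte markers (660 to 1349 against 133 to 277 CPM) and macrophage markers (94.5 to 241 against 75.5 to 86.4 CPM) were higher in every tumour. So were those of stellate cells, endothelial cells and adipocytes. Of the 3 adipocyte markers, 2 were at 0 in tumours 1 and 3 and in wild-type female 2. Hepatocyte and lymphocyte sums overlapped. The part of these cells in the values was not tested.

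Whether the knockout goes with unequal changes in the sexes was tested as the log2 fold change of non-tumour tissue minus that of males. It was called for 1 of 10 members, Mup10, where 10.9% of all genes were called (2.20% higher, 8.68% lower). Of these calls 20.2% were higher, and 32.7% under upper-quartile scaling, where the median of all genes was 0.09 in place of −0.07. The fitted value of −6.43 ± 1.63 (adjusted p = 0.0301) rests on non-tumour libraries without a count, so it depends on the prior count and is no bound. The call was lost when any of 7 of the 11 libraries was left out. For Mup3 the difference was −4.68 ± 1.68 (adjusted p = 0.0958), and for Mup20 it was −2.25 ± 1.87 (adjusted p = 0.469). The larger loss of Mup3 in females was therefore not called as a difference between the sexes. In this comparison too, sex cannot be told apart from the tumour status of the knockout males, which is not stated.

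Knockout males against non-tumour tissue of knockout females sets the sexes side by side within the knockout. Whether the knockout males carried tumours is not stated, so sex cannot be told apart from tissue or tumour status. Cholangiocyte markers summed to 64.0 to 350 CPM in knockout males, against 418 to 559 CPM in non-tumour tissue. Of the 10 members 3 rose in males and none fell, where 0.392% of all genes were called and 0.207% were called higher. Mup21 had 58.2, 31.7 and 64.3 CPM in knockout males, against 3.41, 3.80 and 3.93 CPM in non-tumour tissue (3.79 ± 0.66, adjusted p = 0.0312). Mup11 had 289 counts over the knockout males and 2 over the non-tumour libraries, 187-fold more after scaling (95% counting interval 51.3 to 1552, adjusted p = 0.0260). Mup10 had 25, 12 and 39 counts in knockout males and none in non-tumour tissue, at least 4.93-fold higher (adjusted p = 0.0382). Mup20, at 1744 to 5815 CPM in knockout males against 4.39 to 14.3 CPM in non-tumour tissue, had the widest gap in CPM (8.80 ± 1.74, adjusted p = 0.0675). Mup3 (6.68 ± 1.40, adjusted p = 0.0785), Mup12 (8.99 ± 1.82, adjusted p = 0.0774) and Mup1 (6.98 ± 1.40, adjusted p = 0.0716) missed the threshold. Males were higher without overlap for 8 of 10 members, against 9.26% of all genes, and 9 of 10 had an unadjusted p under 0.05. The 3 calls were lost in 5 of the 6 fits that left out 1 library, and without knockout male 2 the member calls were 6, in a fit that called 143 genes in all, against 70 with every library.

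Rows of the cluster outside the 10 members were counted beside them. The table holds 48 Mup rows, 21 genes and 27 pseudogenes. Of the 38 rows that are no member, 18 had at least 10 counts in a library. The other Mup genes summed to 176 ± 142 CPM in knockout males, 328 ± 218 in wild-type males, 0.700 ± 0.834 in female tumours, 2.91 ± 4.63 in non-tumour tissue (SD, n = 3 each) and 22.7 ± 20.6 in wild-type females (SD, n = 2). The pseudogenes summed to 385 ± 237 CPM in knockout males and 46.3 ± 29.2 in wild-type males, and the groups do not overlap. Mup-ps19 and Mup-ps16, which held most of these counts in knockout males, were higher in every knockout male than in any wild-type male. Neither was called (adjusted p = 0.171 and 0.145), and 23.1% of all genes were higher without overlap. Reads of Mup-ps19 cannot be fully parted from those of Mup20. In wild-type males the most abundant of the other Mup genes were Mup16 and Mup14. Mup16 had 168, 3.07 and 156 CPM in knockout males, against 199.997, 169 and 30.9 CPM in wild-type males, and the groups overlap (−0.29 ± 1.73, adjusted p = 0.928). Mup14 had 36.9, 0.877 and 24.9 CPM in knockout males, against 134, 153 and 10.7 CPM in wild-type males, with overlap (−2.24 ± 1.23, adjusted p = 0.240). Mup-ps16 had 83.3, 60.1 and 41.0 CPM in knockout males, against 4.01, 9.45 and 4.39 CPM in wild-type males. In females Mup-ps16 varied within groups, with 0.371, 44.0 and 38.9 CPM in tumours and 1.21, 70.6 and 10.7 CPM in non-tumour tissue, against 87.4 and 24.0 CPM in wild-type females. Mup13 fell in non-tumour tissue against wild-type females, with 0.0525, 0.534 and 0 CPM in non-tumour tissue, against 8.36 and 1.49 CPM in wild-type females (−4.71 ± 1.14, adjusted p = 0.0468). It also fell in tumours, with no count in the 3 libraries, against 134 and 31 counts in wild-type females (adjusted p = 0.0107). Mup9 (5.46 ± 1.55, adjusted p = 0.0265) and Mup15 (5.82 ± 1.59, adjusted p = 0.0233) rose in wild-type males against wild-type females.

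A further protein-coding gene between Mup12 and Mup17, Gm21320 in the deposited table and Mup22 in the GENCODE annotation, shares 125-base windows with all 7 array members. It had 158, 1.02 and 455 CPM in knockout males and 347, 222 and 41.4 CPM in wild-type males. In females it had no count in the tumours and 0.0525, 0.0593 and 0 CPM in non-tumour tissue, against 79.7 and 1.25 CPM in wild-type females. Adding it and all Mup rows to the family sum gave log2 ratios of −0.38 for knockout against wild-type males and −3.30 for non-tumour tissue against wild-type females, where the 10 members gave −0.48 and −4.60. For Gm21320 itself knockout male 2 was the lowest male, as for every array member except Mup2.

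Growth hormone signalling and known regulators of Mup genes were read as a list of 26 genes, all tested. Growth hormone binds its receptor Ghr, which acts through the kinase Jak2 and the transcription factors Stat5a and Stat5b, and Cish and Socs2 are feedback inhibitors that Stat5 induces. In knockout against wild-type males 9 of 26 rose and none fell, against 14.3% higher over all genes, and the median log2 difference was 0.50, against 0.11 over all genes. Cish had 42.4, 28.4 and 28.7 CPM in knockout males, against 7.57, 8.16 and 9.44 CPM in wild-type males (1.98 ± 0.27, adjusted p = 0.000271). The oestrogen receptor gene Esr1 rose by 1.71 ± 0.27 (adjusted p = 0.00068). Ghr had 162, 138 and 233 CPM in knockout males, against 90.04, 81.5 and 62.2 CPM in wild-type males (1.19 ± 0.28, adjusted p = 0.0092). Cebpa rose by 1.16 ± 0.24 (adjusted p = 0.00449). Zhx2, a repressor of fetal liver genes that is needed for Mup expression in mice (1.54 ± 0.60, adjusted p = 0.0813), Zbtb20 (0.51 ± 0.19, adjusted p = 0.0765), Stat5b (0.30 ± 0.20, adjusted p = 0.303) and Hnf4a (0.20 ± 0.25, adjusted p = 0.600) did not pass.

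In females members of the same list fell. In non-tumour tissue against wild-type females 0 of 26 rose and 5 fell (median −0.41), where 2.26% of all genes were called lower, and in tumours against wild-type females 10 fell (median −0.58), where 5.67% were. Ghr had 66.2, 97.3 and 111 CPM in tumours and 102, 131 and 84.6 CPM in non-tumour tissue, against 436 and 323 CPM in wild-type females (−2.05 ± 0.31, adjusted p = 0.00169 in tumours, and −1.84 ± 0.31, adjusted p = 0.00857 in non-tumour tissue). Stat5a fell by 1.74 ± 0.30 (adjusted p = 0.0104) in non-tumour tissue. In tumours Onecut1 (−2.93 ± 0.53, adjusted p = 0.0046) and Stat5b (−0.74 ± 0.22, adjusted p = 0.0461) fell. Zhx2, Zbtb20, Hnf4a and Cebpa were not called in either comparison, with log2 values of −0.36, −0.35, −0.02 and −0.26 in non-tumour tissue (adjusted p = 0.372 to 0.984) and −1.37, −0.49, −0.29 and −0.23 in tumours (adjusted p = 0.161 to 0.621). Stat5b in non-tumour tissue was not called either (−0.62 ± 0.22, adjusted p = 0.116). Between tumours and non-tumour tissue none of the 26 was called, the smallest adjusted p being 0.665 for Esr1 (−1.04). The female minus male difference was called lower for 11 of 26 genes, where 8.68% of all genes were called lower. It was −3.03 ± 0.42 for Ghr (adjusted p = 0.000828) and −2.15 ± 0.39 for Cish (adjusted p = 0.00352). Cebpa was called as well (−1.42 ± 0.36, adjusted p = 0.0217), while Stat5b, Zhx2, Zbtb20 and Hnf4a were not (adjusted p = 0.0578 to 0.742).

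Between the wild-type sexes 10 of 26 fell in males and none rose, where 16.1% of all genes were called lower. The female-biased factor gene Cux2 had 0, 0.286 and 0.404 CPM in wild-type males, against 159 and 97.3 CPM in wild-type females (−9.02 ± 0.73, adjusted p = 1.58e-05). Cux2 had 1.86, 2.27 and 0.678 CPM in knockout males, and 85.4, 119 and 70.7 CPM in non-tumour tissue of knockout females (−5.86 ± 0.59, adjusted p = 0.000242). It was the 1 gene of the list called between the knockout sexes. In wild-type males Esr1 (−2.49 ± 0.29, adjusted p = 7.25e-05) and Ghr (−2.28 ± 0.31, adjusted p = 0.000244) also fell against wild-type females. Cebpa, Zhx2, Stat5b, Zbtb20 and Hnf4a were not called there (adjusted p = 0.0553 to 0.936).

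Other male-biased liver genes were read as a list of 20, of which 19 were tested. In wild-type males against wild-type females 9 of 19 rose and none fell, against 7.03% higher over all genes, led by Elovl3 (9.02 ± 0.93, adjusted p = 5.93e-05), an enzyme of fatty acid elongation, Cyp4a12a (9.20 ± 1.14, adjusted p = 0.000222), a fatty acid hydroxylase, and the complement gene C6 (4.29 ± 0.67, adjusted p = 0.000849). In knockout against wild-type males 2 of 19 rose and 4 fell, where 14.3% of all genes were called higher and 6.32% lower, so the count that rose is no more than the background. Slco1a1, an uptake transporter of organic anions, had 20.4, 12.9 and 9.55 CPM in knockout males, against 57.3, 117 and 79.9 CPM in wild-type males (−2.57 ± 0.43, adjusted p = 0.00124). Elovl3 had 54.4, 26.8 and 76.7 CPM in knockout males, against 429, 503 and 267 CPM in wild-type males (−2.92 ± 0.57, adjusted p = 0.00339). Selenbp2 had 60.2, 81.9 and 129 CPM in knockout males, against 15.01, 20.5 and 4.995 CPM in wild-type males (2.75 ± 0.50, adjusted p = 0.00217). In non-tumour tissue against wild-type females and in tumours against non-tumour tissue none of the 19 was called, and in tumours against wild-type females, where 3.94% of all genes were called higher, 2 rose, Cyp4a12a (3.77 ± 1.02) and Elovl3 (2.74 ± 0.75, adjusted p = 0.0372 each). Between the knockout sexes 5 of 19 rose in males and none fell, against 0.207% higher over all genes, led by Cyp4a12a, with 411, 332 and 598 CPM in knockout males, against 0, 0.356 and 0.0904 CPM in non-tumour tissue (11.57 ± 1.02, adjusted p = 8.82e-05).

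The protein-coding genes most like the family sum across the 14 libraries, among 9773 with a mean of at least 5 CPM, were Nudt7 (Pearson r = 0.877 of log2(CPM + 1)), Scyl3 (0.875), Sult2a8 (0.873), Acaa1b (0.871) and Paqr7 (0.870). Libraries of 1 group share genotype and sex, so these values describe the group pattern. Added after the values were seen, the genes most like Mup20 were Nat8f5 (0.983), Cyp4a12a (0.952), Nat8 (0.939), Ecsit (0.916) and Cyp2d9 (0.907), and those most like Mup3 were Ces1f (0.914), Scyl3 (0.905) and Sult2a8 (0.901). Nat8f5 had 25.7, 12.9 and 25.5 CPM in knockout males, against 8.99, 12.2 and 7.67 CPM in wild-type males, the order of Mup20. Sult2a8 had 1.67, 1.86 and 1.52 CPM in tumours and 0.735, 3.86 and 1.31 CPM in non-tumour tissue, against 220 and 155 CPM in wild-type females, the order of Mup3. Both genes were picked for this likeness in the same libraries, so their orders are no separate evidence. Among the 7 array members r was 0.461 to 0.987 over 21 pairs (median 0.917), and between Mup20 and the array members 0.433 to 0.767 (median 0.674).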

How the data were processed

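Total RNA of 14 mouse livers or liver tumours was sequenced in pairs of reads. Per the submitters' processing notes, HISAT2 2.0.5, featureCounts 1.5.0-p3 and GRCm38 were used. The count values were deposited by the authors as whole, unscaled counts per gene, and the FPKM values were deposited by the authors scaled to gene length and library size. How reads that match several copies were counted, and the strand setting, are not given in the sources used here.

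Counts were tested in edgeR 4.0.16 (R 4.3.3): TMM scaling, filterByExpr on the 5 groups (17874 genes left, all 10 members among them), 1 robust quasi-likelihood fit of all 14 libraries, 2-sided F tests and Benjamini-Hochberg adjustment over all genes per comparison, threshold 0.05. Every adjusted p is from this test unless another is named. SE is the log2 fold change divided by the root of F. The fit was tested on simulated data. Date-like symbols (27) were restored by gene ID. Coding sequences and transcripts are from GENCODE vM21 (GRCm38), aligned with MAFFT 7.526. Groups with no counts were set to a floor of 3 counts in each library. FPKM gave order and shares within a library. The members, lists and rules were chosen with earlier results of these data known. All members are named, other Mup rows with 10 counts or more where called or abundant, the 3 genes of each list with the smallest p (one of them is not reported here), 6 regulators, and the 5 genes most like the family sum. DESeq2 1.42.0 and limma-voom 3.58.1, other scalings and filters, fits of only the groups compared, a replicate block and left-out libraries were alternatives.

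Same-numbered libraries of tumour and non-tumour tissue deviated together from their group means (r = 0.472, 0.367 and 0.320 over 10229 genes). Knockout male 3 and non-tumour 3, which cannot share a mouse, reached r = 0.391, so pairing was not established. Values given for tumours against non-tumour tissue are from the fit without pairing, and no call of a member changed with the block. In each of the other comparisons r was negative for some same-numbered libraries.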

Additional observations from a re-analysis of the deposited data

Results flagged for a closer look

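Mup10 was marked because the test of the difference itself called the knockout effect unequal in the sexes, with a fitted log2 difference (females minus males) of −6.43. Mup10 had 0 counts in the 3 non-tumour libraries and 21 and 7 in wild-type females, and 25, 12 and 39 counts in knockout males and 47, 30 and 29 in wild-type males. At so few counts the fitted size is no bound.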

How the results depend on the processing

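Of 548 alternative values for 37 gene and comparison pairs, 278 under other settings and 172 with 1 library left out kept direction and side of the threshold. Otherwise 43 and 6 gained a call, 5 and 41 lost one, and 1 and 2 reversed. All 3 reversals were Mup20 in non-tumour tissue against wild-type females, at −0.0986 in limma-voom and from −0.586 (without non-tumour 2) to 0.485 with 1 library left out, including −0.238 without wild-type female 3. Mup11 in knockout against wild-type males kept its call in all 9 other settings and all 6 fits with a library left out.

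Counts of members called depended on the low-count filter, since without it 28842 genes entered and 6 members were called in non-tumour tissue against wild-type females, 5 in tumours against non-tumour tissue, 8 in tumours against wild-type females, 8 in knockout against wild-type males, 4 for the difference between the sexes, 8 between the wild-type sexes and 9 between the knockout sexes. Calls over all genes moved too, to 1739, 338, 2516, 4065, 2815, 4634 and 700 in the same order, against 743, 0, 1718, 3688, 1945, 4137 and 70 with the filter. DESeq2 called 6 in tumours against wild-type females, 2 in knockout males, 2 for the difference and 7 between the knockout sexes (2997, 4582, 3039 and 451 over all genes). For the last 3, limma-voom called 2, 2 and 5 (3183, 3333 and 710 over all genes). With only the groups compared the counts were 1 in non-tumour tissue, 1 in tumours against wild-type females, 2 in knockout males, 2 for the difference and 6 between the knockout sexes. Calls over all genes were then 1061, 2489, 2262, 1824 and 115 in the same order. Leaving out 1 library moved calls over all genes to 2462 to 4055 in knockout males and to 19 to 143 between the knockout sexes. With 1 library left out the counts ran from 0 to 2 in non-tumour tissue and in tumours against wild-type females, from 1 to 2 in knockout males, from 0 to 1 for the difference, from 2 to 5 between the wild-type sexes and from 0 to 6 between the knockout sexes.

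The replicate block called 0 members in non-tumour tissue, 1 in tumours against wild-type females, 0 for the difference and 1 between the knockout sexes. Over all genes it called 1143, 2995, 1610 and 62 in the same order. It changed no other count of members. Samples of different genotype or sex share only a number, and for tumour and non-tumour tissue a shared mouse is not stated.

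The log2 ratio of the family sum was −3.21 in non-tumour tissue against wild-type females with every Mup row, summed or collapsed before the fit, and −3.30 with Gm21320 added. Between the knockout sexes it was 7.78, and 6.28 with every Mup row, 6.28 collapsed, 6.34 with Gm21320 and 6.03 without Mup20. Without Mup20 it was −2.81 in knockout against wild-type males and −3.29 in tumours against wild-type females. The settings that leave out Mup20 or add Gm21320 were chosen after seeing the data. With 1 library left out it ran from 0.710 to 4.46 in tumours against non-tumour tissue and from −3.89 to −0.304 in tumours against wild-type females, where 0.710 and −3.89 are the values without tumour 3. The cause was not tested. At totals of 14745140 to 19480538 counts, members with a few counts, such as Mup2 and Mup10, allow bounds only.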

Other observations

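Gm12909, annotated as an antisense RNA on the plus strand, starts at 62088288 on chromosome 4, upstream of the start of the minus-strand gene Mup3 at 62087342. It had 28.1, 28.6 and 6.22 CPM in knockout males, against 74.7, 137 and 120 CPM in wild-type males, without overlap. In females it had 0.742, 5.69 and 10.6 CPM in tumours and 0.262, 7.24 and 0 CPM in non-tumour tissue, against 26.7 and 37.9 CPM in wild-type females, again lower in every knockout library. None of these differences was called (adjusted p = 0.201 in males, 0.163 in non-tumour tissue and 0.266 in tumours against wild-type females). Of all genes, 12.2%, 26.5% and 27.6% were lower without overlap in the same comparisons. Gm12909 does not overlap the deposited coordinates of Mup3. The row was singled out after its values were seen.

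Mup19, a Mup gene outside the 10 members, had 52.1, 4.17 and 12.5 CPM in knockout males, against 8.28, 5.15 and 1.31 CPM in wild-type males, with overlap, and 0.157, 0.178 and 0 CPM in non-tumour tissue, against 5.86 and 0.771 CPM in wild-type females. The female minus male difference of the knockout was −7.09 ± 1.98 (adjusted p = 0.0406). The pseudogene Mup-ps2 had 17, 3 and 15 counts in knockout males and none in wild-type males (adjusted p = 0.0416).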
